A study of Mus musculus with 23 samples.

Results

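Aminoacyl-tRNA synthetase genes were followed in mouse bone marrow before and after leukemia. The genes were chosen by symbol: every symbol made of a single amino acid letter and "ars", with or without a final 1 or 2, together with Farsa, Farsb and Eprs. That gave 34 of the 19938 symbols with a probe set of their own. Of these, 18 carry no suffix 2 and are called cytosolic here, and 16 carry the suffix 2 and encode mitochondrial enzymes. All 34 passed the filter on dim genes, which left 15542 genes. The cytosolic alanine enzyme gene Aars shares its probe set with another symbol and was left out.

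Each synthetase couples an amino acid to its tRNA with energy from ATP, which gives ribosomes their substrates. Most amino acids have a cytosolic enzyme and a separate mitochondrial enzyme encoded by another nuclear gene, while Gars and Kars each serve both compartments. Eprs joins the glutamate and proline enzymes in 1 protein, Farsa and Farsb are the subunits of the cytosolic phenylalanine enzyme, and 7 of the cytosolic genes here (Eprs, Iars, Kars, Lars, Mars1, Qars and Rars) encode members of the multisynthetase complex. Uncharged tRNA activates the kinase Gcn2 (Eif2ak4), after which translation of the transcription factor Atf4 increases, and both Atf4 and Myc are known to act on synthetase genes.

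All mice received a single dose of 2 Gy at 2 months of age. There were 10 leukemic samples of Pax5+/- mice and 3 of wild-type (WT) mice. The preleukemic samples, 7 of Pax5+/- and 3 of WT mice, held pro-B with pre-B cells collected when 3 weeks had passed since irradiation. Pax5+/- mice lack 1 copy of Pax5, the factor that commits progenitors to the B lineage. The leukemic samples are titled pro-B cells and described as leukemic marrow, with no sort stated, and WT leukemia 16 was not analysed here. Leukemia therefore cannot be told apart from age, time after the dose or the stage of the B cells, and in WT mice it also coincides with the level of the X-linked RNA Xist, which was high in all 3 leukemias and low in all 3 preleukemic samples. In such bulk RNA fewer cells of a type and less RNA per cell cannot be told apart.

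The 23 arrays had medians between 6.06 and 6.2 on the log2 scale, and their number limits the precision. Their 75th percentiles ran from 8.24 to 8.3 in the Pax5+/- leukemias and from 8.1 to 8.22 before leukemia. In WT mice they ran from 8.23 to 8.31 and from 8.11 to 8.23. Quantile normalization, given below, makes the distributions of the arrays alike. Markers of some other cell types rose in Pax5+/- leukemia: 6 of 6 megakaryocyte, 10 of 12 neutrophil and 8 of 9 monocyte markers. Of 10 stromal or endothelial markers 8 were higher and 1 lower, and 6 of 9 B lineage markers were lower. Of the other lists, plasma cell markers had 2 of 7 higher and 2 lower, plasmacytoid dendritic cell markers 3 of 6 higher and 1 lower, erythroid markers 1 of 5 higher and 1 lower, T cell markers 1 of 5 higher and NK cell markers 1 of 6 higher. All 7 markers of dividing cells were higher, with a mean level of 9.87 to 10.84 in the Pax5+/- leukemias and 8.78 to 9.49 before leukemia. Mean levels of the neutrophil markers ran from 6.34 to 11.06 in the leukemias and from 6.32 to 7.03 before leukemia, and those of the megakaryocyte markers from 7.93 to 10.81 and from 6.57 to 6.78. WT preleukemic sample 20 stood apart from the other preleukemic samples, at 10.81 for neutrophil markers and 10.64 for dividing cells. The part of these cells in the synthetase values was not tested.

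Cytosolic synthetase genes rose in the Pax5+/- leukemias, with Kars, Eprs and Iars in front by the probe sets used. More of the mitochondrial genes were higher than lower. Of the 34 genes, 25 passed an adjusted p of 0.05 (limma across all groups, Benjamini-Hochberg over all genes), 23 higher and 2 lower. Stage changed much of the transcriptome: 64.6% of all genes tested passed, 28% higher and 36.5% lower. Among the 11634 genes above the 50th percentile of their array on at least 3 arrays, 35.3% were higher and 31.7% lower. The median log2 difference of the 34 genes was 0.31, against -0.053 for all genes tested. Of the 18 cytosolic genes 15 were higher and 0 lower, with a median of 0.39. Of the 16 mitochondrial genes 8 were higher and 2 lower, with a median of 0.24, and 13 of the 16 differences were positive. No synthetase gene rose more than 2-fold in this comparison. Leukemias 2 and 6 had the highest neutrophil marker means, 10.63 and 11.06, and leukemia 7 kept a Pax5 signal inside the preleukemic range. Without these 3 leukemias 25 genes passed, 15 of the cytosolic and 8 of the mitochondrial genes being higher.

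**Figure D1:**
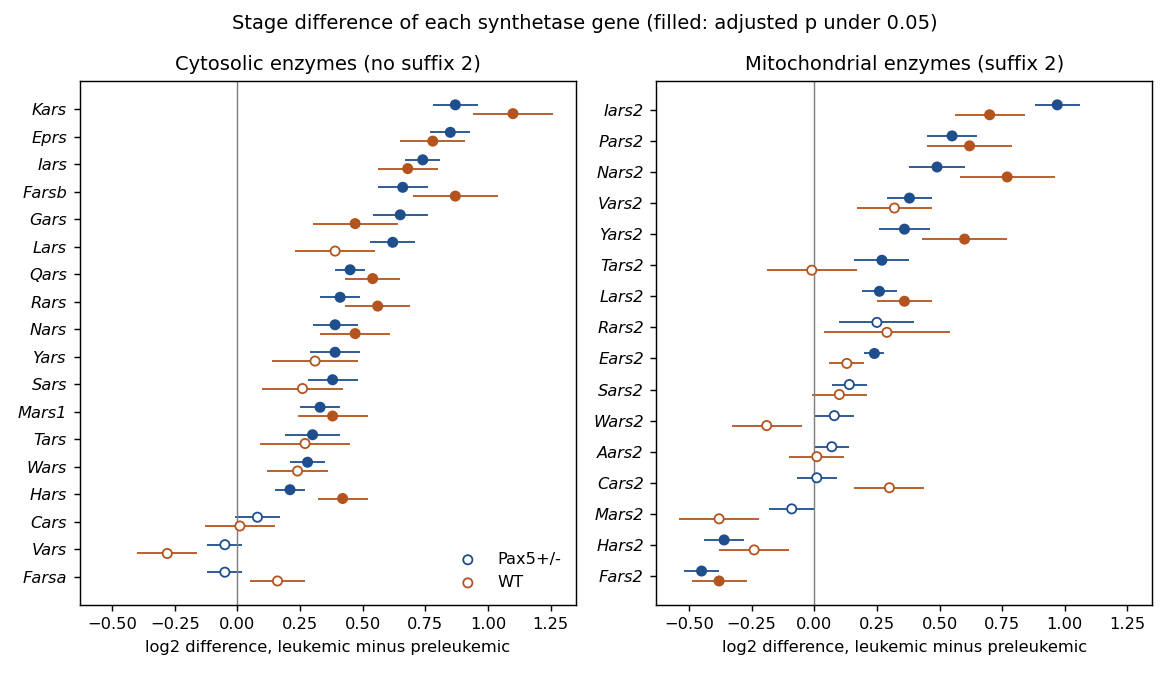
Log2 difference between leukemic and preleukemic samples (horizontal axis) for each synthetase gene, in Pax5+/- mice (blue, n = 10 and n = 7) and WT mice (orange, n = 3 and n = 3). Points are limma estimates, bars are standard errors, and filled points passed an adjusted p of 0.05. Most filled points lie to the right of 0, and Fars2 and Hars2 lie to its left.

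By the probe sets used, Kars, Eprs and Iars, all members of the complex, had the largest differences of the cytosolic group. Kars, the lysine enzyme of both compartments, had log2 signals of 8.23, 8.44 and 8.83 (lowest, median and highest) before leukemia and of 9.12, 9.33 and 9.63 in the Pax5+/- leukemias. Every leukemia lay above every preleukemic sample. The rise was 1.83-fold (log2 difference 0.87, SE 0.09, limma adjusted p = 1.14e-07). Eprs, the joined glutamate and proline enzyme, went from 8.37, 8.43 and 8.62 to 9.05, 9.26 and 9.66, again with no overlap. Its rise was 1.8-fold (log2 difference 0.85, SE 0.08, limma adjusted p = 8.71e-09).

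Iars, which charges tRNA with isoleucine, had signals of 9.34, 9.45 and 9.7 before leukemia and of 9.86, 10.18 and 10.44 in it. The groups did not overlap, and the rise was 1.67-fold (log2 difference 0.74, SE 0.07, limma adjusted p = 3.74e-08). A further Iars probe set gave 0.58, and 0.46 in WT mice. At 0.58 Iars would stand below Farsb (0.66), Gars (0.65) and Lars (0.62). Lars, the leucine enzyme, which is also known as a leucine sensor upstream of mTORC1, had signals of 7.94, 8.12 and 8.38 before leukemia and of 8.3, 8.77 and 9.03 in it. In 9 of the 10 leukemias Lars was above all 7 preleukemic samples, and the log2 difference was 0.62 (SE 0.09, limma adjusted p = 9.25e-06).

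The remaining complex members were the glutamine enzyme Qars (log2 difference 0.45), the arginine enzyme Rars (0.41) and the methionine enzyme Mars1 (0.33). All 7 complex members were thus higher, with a median log2 difference of 0.62. Of the 11 cytosolic genes outside the complex 8 were higher, with a median of 0.3. The difference between these sets was not tested. All 3 scaffold genes of the complex also passed. Aimp2 ran from 8.2 to 8.64 before leukemia and from 8.55 to 9.85 in it (log2 difference 0.9, limma adjusted p = 1.47e-05). Eef1e1 differed by 0.54 (limma adjusted p = 0.00393) and Aimp1 by 0.25 (limma adjusted p = 0.0479). With 1 sample left out the adjusted p of Aimp1 ran from 0.0219 to 0.14, and it missed the threshold without leukemia 3, 5, 7, 8, 9 or 10 or preleukemic sample 21, 22, 23 or 24.

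Outside the complex, the phenylalanine enzyme showed its subunits apart. Farsb, the beta subunit, had signals of 8.64, 8.79 and 9.09 before leukemia and of 8.92, 9.52 and 9.85 in it. In 9 of 10 leukemias it lay above every preleukemic sample (log2 difference 0.66, SE 0.1, limma adjusted p = 1.42e-05). Farsa, the alpha subunit, had 8.85, 8.99 and 9.18 before leukemia and 8.74, 8.94 and 9.22 in it. The Farsa groups overlapped almost fully (log2 difference -0.05, SE 0.07, limma adjusted p = 0.539).

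**Figure D2:**
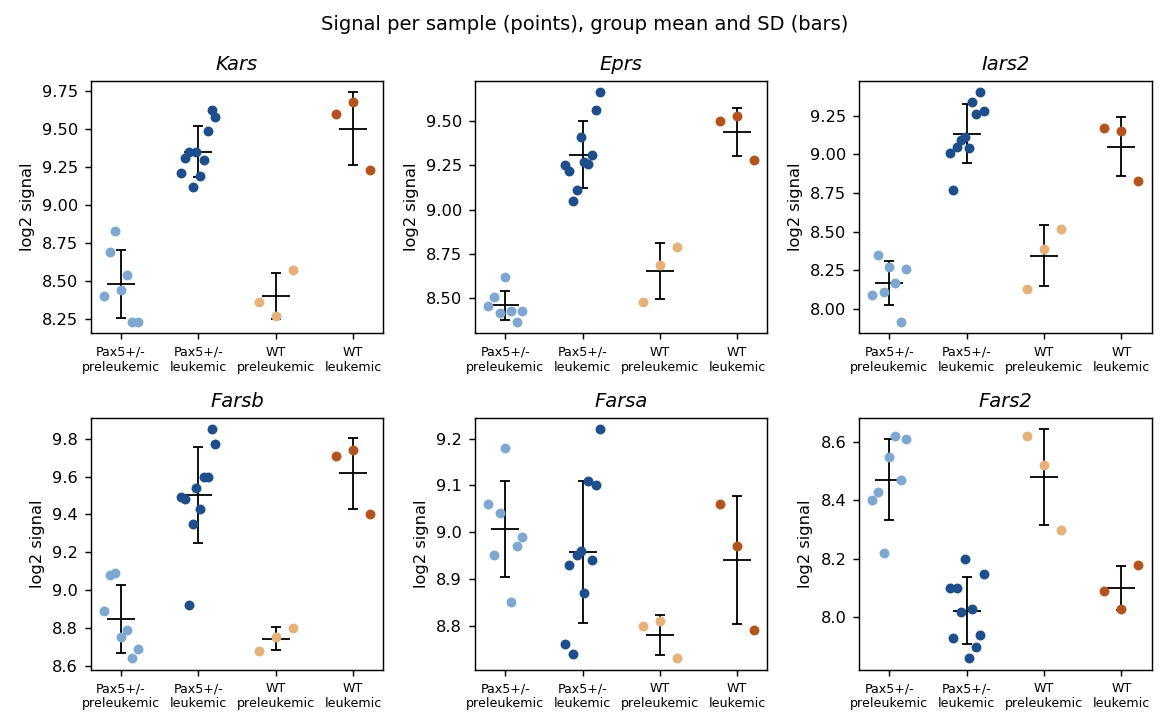
Log2 signal per sample (points) of Kars, Eprs, Iars2, Farsb, Farsa and Fars2 in the 4 groups. Horizontal marks are group means and vertical bars are SD (n = 7, n = 10, n = 3 and n = 3 from left to right). Kars, Eprs and Iars2 separate the stages in both genotypes, Farsa overlaps, and Fars2 is lower in leukemia.

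Gars, the glycine enzyme of both compartments, held 8.79, 8.91 and 9.0 before leukemia and 9.11, 9.58 and 9.91 in the Pax5+/- leukemias. Its groups did not overlap (log2 difference 0.65, SE 0.11, limma adjusted p = 1.98e-05). Wars, the tryptophan enzyme and a gene known to respond to interferon, held 8.45, 8.53 and 8.65 before leukemia and 8.51, 8.85 and 9.04 in it. Of the 10 leukemias 8 lay above every preleukemic sample (log2 difference 0.28, SE 0.07, limma adjusted p = 0.00198). The other passing genes outside the complex were Nars (0.39), Yars (0.39), Sars (0.38), Tars (0.3) and Hars (0.21), the asparagine, tyrosine, serine, threonine and histidine enzymes. Under quantile normalization Tars no longer passed (log2 difference 0.16, limma adjusted p = 0.209).

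Besides Farsa, the cytosolic genes that did not pass were Vars and Cars. Vars, the valine enzyme, had signals of 10.53, 10.7 and 10.92 before leukemia and of 10.48, 10.68 and 10.92 in it (log2 difference -0.05, limma adjusted p = 0.595). Cars, the cysteine enzyme, had 7.63, 7.7 and 7.84 before leukemia and 7.55, 7.7 and 8.21 in it (log2 difference 0.08, limma adjusted p = 0.399). For Cars 4 leukemias lay above and 4 below the whole preleukemic range.

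Among the mitochondrial genes Iars2, the isoleucine enzyme of mitochondria, showed the largest log2 difference of the 34. It had signals of 7.92, 8.17 and 8.35 before leukemia and of 8.77, 9.1 and 9.4 in the Pax5+/- leukemias. All leukemias were above all preleukemic samples, a 1.96-fold rise (log2 difference 0.97, SE 0.09, limma adjusted p = 7.49e-09). Pars2, the mitochondrial proline enzyme, had 6.33, 6.62 and 6.67 before leukemia and 6.71, 7.14 and 7.46 in it, with no overlap (log2 difference 0.55, SE 0.1, limma adjusted p = 7.31e-05). Nars2, for asparagine, had 6.85, 7.08 and 7.53 before leukemia and 7.22, 7.62 and 7.98 in it. These groups overlapped, with 6 of 10 leukemias above the preleukemic range (log2 difference 0.49, SE 0.11, limma adjusted p = 0.000876).

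Fars2, the single-subunit phenylalanine enzyme of mitochondria, went the other way. Its signals were 8.22, 8.47 and 8.62 before leukemia and 7.86, 8.02 and 8.2 in it, so that all 10 leukemias lay below all 7 preleukemic samples. The fall was 1.36-fold (log2 difference -0.45, SE 0.07, limma adjusted p = 6.6e-06). Hars2, for histidine, fell by 0.36 on the log2 scale (SE 0.08, limma adjusted p = 0.000747), with 8 of 10 leukemias below the preleukemic range. Its neighbour on the chromosome in the RefSeq annotation is Hars, the cytosolic enzyme, which rose by 0.21 (SE 0.06, limma adjusted p = 0.00583). Under quantile normalization Hars differed by 0.09 (limma adjusted p = 0.185).

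The other mitochondrial genes that passed were Vars2 (0.38), Yars2 (0.36), Tars2 (0.27), Lars2 (0.26) and Ears2 (0.24). Under quantile normalization Lars2 (log2 difference 0.12, limma adjusted p = 0.108), Yars2 (0.22, limma adjusted p = 0.055) and Tars2 (0.17, limma adjusted p = 0.189) no longer passed. Ears2, the glutamate enzyme, was dim, above the array median on 13 of 23 arrays, so background limits its difference. Tars2, for threonine, passed at an adjusted p of 0.0416 in limma's fit. With 1 sample left out its p ran from 0.0176 to 0.1, and it missed the threshold without leukemia 5, 6, 9 or 10 or preleukemic sample 11, 13, 21, 22 or 23. It also missed the threshold with the letter of the mouse numbers as a random block (adjusted p = 0.0607) and in a fit of the Pax5+/- samples alone (adjusted p = 0.0663), both in limma. The 6 mitochondrial genes that did not pass were Aars2, Cars2, Mars2, Rars2, Sars2 and Wars2. Cars2, for cysteine, held 7.72, 7.9 and 7.99 before leukemia and 7.46, 7.96 and 8.11 in it, with overlap in both directions. Aars2, for alanine, held 7.04, 7.22 and 7.3 before leukemia and 7.05, 7.26 and 7.42 in it. Wars2, for tryptophan, held 6.39, 6.72 and 6.93 before leukemia and 6.57, 6.8 and 7.06 in it. Limma's adjusted p was 0.915, 0.338 and 0.419 for these 3 genes.

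Quantile normalization of the arrays moved the mitochondrial count more than the cytosolic one. It left 5 mitochondrial genes higher and 3 lower, with Mars2 added to Fars2 and Hars2, and a median log2 difference of 0.13. The cytosolic genes then had 13 higher and 0 lower and a median of 0.33.

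**Figure D3:**
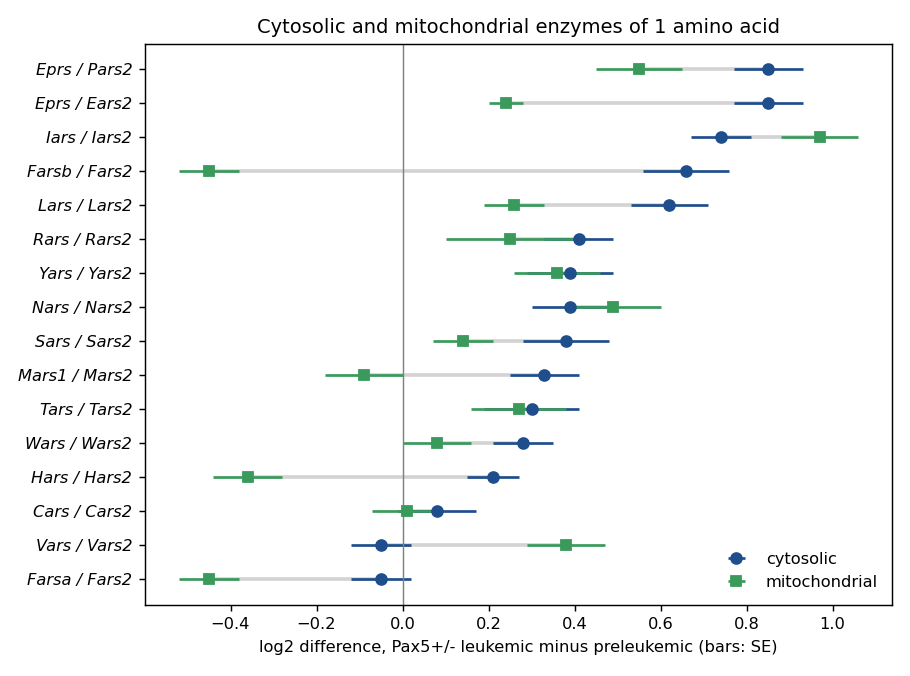
Log2 difference between Pax5+/- leukemic (n = 10) and preleukemic (n = 7) samples for the cytosolic (blue circles) and mitochondrial (green squares) enzymes of the same amino acid. Bars are standard errors, and Eprs and Fars2 each stand in 2 pairs. The circle lies to the right of the square in 13 of 16 pairs.

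Set side by side by amino acid, the cytosolic gene had the larger difference in 13 of 16 pairs in Pax5+/- mice. The exceptions were isoleucine (Iars 0.74 and Iars2 0.97), asparagine (Nars 0.39 and Nars2 0.49) and valine (Vars -0.05 and Vars2 0.38). The widest gaps were between Farsb at 0.66 and Fars2 at -0.45 and between Eprs at 0.85 and Ears2 at 0.24. In WT mice the cytosolic gene had the larger difference in 11 pairs, and all 11 were among the 13. Pairs share genes and samples, and the gaps were not tested. Synthetases fall into a class I and a class II by the fold of their catalytic domain, and Eprs has both. Of the 18 class I genes 12 rose and 0 fell, and of the 15 class II genes 10 rose and 2 fell.

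The leukemias also differed among themselves. The mean signal of the 18 cytosolic genes ran from 8.76 to 8.89 in the Pax5+/- preleukemic samples, with a mean of 8.84 ± 0.05 (SD, n = 7). In the Pax5+/- leukemias it ran from 9.03 to 9.44, with a mean of 9.26 ± 0.15 (SD, n = 10), and all lay above every preleukemic sample. For the 16 mitochondrial genes the mean was 7.61 ± 0.06 (SD, n = 7) in the preleukemic samples, against 7.8 ± 0.14 (SD, n = 10) in the leukemias. Here the groups overlapped, because leukemia 2 at 7.59 and leukemia 3 at 7.67 lay within the preleukemic range of 7.52 to 7.71.

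Leukemia 3 had the lowest cytosolic mean, 9.03, and the lowest signal of the 10 leukemias for 13 genes. It also had the lowest Myc signal of the Pax5+/- leukemias, 9.07. Leukemia 4, with the next lowest cytosolic mean of 9.09, had the highest Myc signal, 11.95. Leukemia 9 had the highest cytosolic mean, 9.44, and the highest signal for 10 genes. Leukemia 2 combined a high cytosolic mean of 9.37 with the lowest mitochondrial mean, and 4 of its 16 mitochondrial genes lay above the preleukemic range. Leukemia 7 had the highest mitochondrial mean, 8.02, with 14 of 16 genes above that range. Across the 10 leukemias 10 to 17 of the 18 cytosolic genes lay above every Pax5+/- preleukemic sample. Mouse numbers that begin with L occur at both stages, in leukemia 10 and in 3 preleukemic samples. Leukemia 10 lay above all 3 for 17 of 18 cytosolic and 12 of 16 mitochondrial genes. How many of all genes tested lay above these ranges was not counted, so the counts only describe single leukemias.

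**Figure D4:**
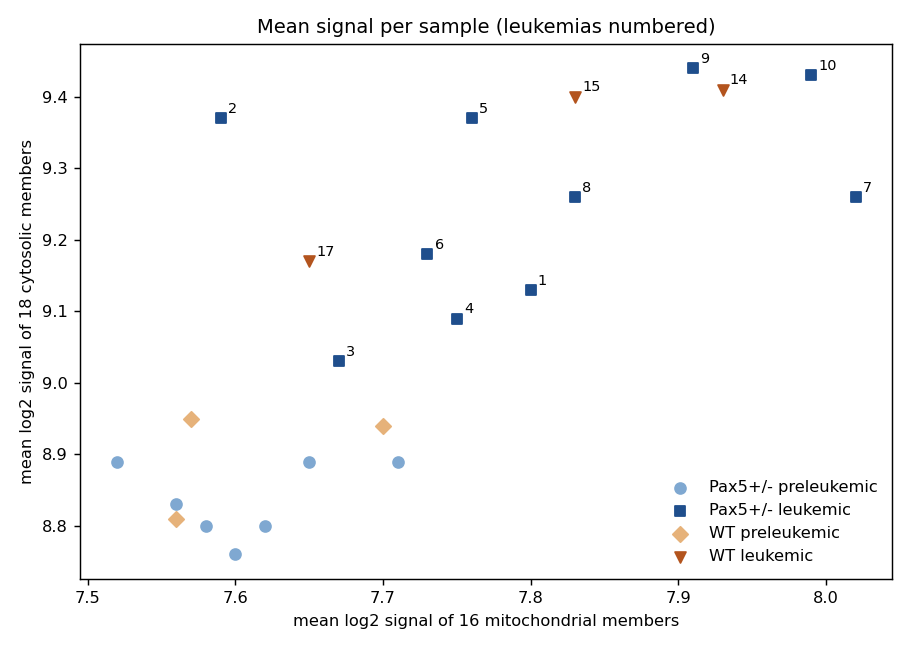
Mean log2 signal of the 16 mitochondrial genes (horizontal axis) and of the 18 cytosolic genes (vertical axis) in each of the 23 samples, with leukemias numbered. Every leukemia lies above every preleukemic sample on the vertical axis, and leukemia 2 lies within the preleukemic range on the horizontal one.

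The same comparison in WT mice rests on 3 samples against 3. Cell type markers moved there too, with 7 of 9 B lineage markers lower. Higher were 5 of 6 megakaryocyte, 5 of 9 monocyte, 3 of 5 erythroid and 6 of 7 dividing cell markers. Of 10 stromal or endothelial markers 7 were higher and 1 lower. Although 0 of 12 neutrophil markers passed, all 12 differences were positive, with a median of 1.93. Neutrophil marker means were 9.43, 10.05 and 10.44 in the WT leukemias and 6.67, 6.73 and 10.81 (sample 20) before leukemia. WT leukemias 15 and 17 had erythroid marker means of 8.76 and 8.93 beside 6.4 in leukemia 14, and leukemia 15 had an NK cell marker mean of 9.81 beside 6.25 and 6.84. Without samples 15, 17 and 20 together, leukemia 14 was the only WT leukemia left, so no count is given for that fit. The part of these cells in the WT values was not tested. There 16 of the 34 genes passed, 15 higher and 1 lower, beside 37.2% of all genes tested (17.9% higher and 19.3% lower). Among the genes above the 50th percentile 23.8% were higher and 20.3% lower. All 15 had also risen in Pax5+/- mice, where they were 65.2% of the genes that rose. Fars2 fell in both. The median log2 difference of the 34 genes was 0.31, against -0.0567 for all genes tested. Of the cytosolic genes 10 were higher, with a median of 0.41, and of the mitochondrial genes 5 were higher and 1 lower, with a median of 0.21. Quantile normalization gave 8 cytosolic genes higher and 1 lower and 4 mitochondrial genes higher and 3 lower. The genes that were lower were then Fars2, Hars2, Mars2 and Vars, and Gars, Lars2 and Mars1 no longer passed.

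Kars had signals of 8.27, 8.36 and 8.57 in the WT preleukemic samples and of 9.23, 9.6 and 9.68 in the WT leukemias, in ascending order as for each gene below. The log2 difference of 1.1 (SE 0.16, limma adjusted p = 2.33e-05) made it the only synthetase gene past 2-fold in the comparisons of stage. Farsb had 8.68, 8.75 and 8.8 before leukemia and 9.4, 9.71 and 9.74 in it (log2 difference 0.87, SE 0.17, limma adjusted p = 0.000513). Neither gene overlapped between the stages, and WT leukemia 17 was the lowest of the 3 leukemias for both. Eprs had 8.48, 8.69 and 8.79 before leukemia and 9.28, 9.5 and 9.53 in it (log2 difference 0.78, limma adjusted p = 9.51e-05).

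Nars2 had 6.81, 6.94 and 7.0 before leukemia and 7.55, 7.62 and 7.9 in it, again without overlap (log2 difference 0.77, SE 0.19, limma adjusted p = 0.00347). Iars2 had 8.13, 8.39 and 8.52 before leukemia and 8.83, 9.15 and 9.17 in it (log2 difference 0.7, SE 0.14, limma adjusted p = 0.000843). Iars had 9.42, 9.54 and 9.58 before leukemia and 10.09, 10.22 and 10.28 in it (log2 difference 0.68, limma adjusted p = 0.000255). All 3 WT leukemias lay above all WT preleukemic samples for each of these enzymes. Pars2 had 6.15, 6.52 and 6.8 before leukemia and 6.91, 7.2 and 7.21 in it (log2 difference 0.62, limma adjusted p = 0.00651).

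Gars had 8.95, 9.15 and 9.44 before leukemia and 9.32, 9.74 and 9.89 in it, so that its groups overlapped in WT mice (log2 difference 0.47, SE 0.17, limma adjusted p = 0.0395). Lars had 8.31, 8.4 and 8.49 before leukemia and 8.61, 8.78 and 8.98 in it and did not pass (log2 difference 0.39, limma adjusted p = 0.0537). Fars2 had 8.3, 8.52 and 8.62 before leukemia and 8.03, 8.09 and 8.18 in it, with every leukemia below every preleukemic sample (log2 difference -0.38, SE 0.11, limma adjusted p = 0.0101). Wars had 8.58, 8.61 and 8.77 before leukemia and 8.74, 8.93 and 9.02 in it (log2 difference 0.24, limma adjusted p = 0.111).

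Over the 34 genes, the WT stages did not overlap for 18 genes that were higher and 2 that were lower in leukemia, beside 21.1% and 23.3% of all genes tested. In Pax5+/- mice, with 10 samples against 7, the stages did not overlap for 9 genes that were higher and 1 that was lower, beside 11.7% and 10.8% of all genes. The sign of the stage difference was shared by 31 genes, and the exceptions were Farsa, Tars2 and Wars2, none of which passed in WT mice. WT leukemia 17 was the lowest of the 3 for 28 of the 34 genes.

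Of the 16 WT calls 9 held whichever single sample was left out. The adjusted p of Gars then ran from 0.0118 to 0.177 and that of Mars1 from 0.0349 to 0.124 in limma's fits, and both missed the threshold without leukemia 14 or 15 or preleukemic sample 18 or 19. Lars2 reached 0.074, missing the threshold without 14, 15 or 18, and Nars reached 0.0661, missing it without 15, 18 or 19. Fars2 reached 0.0643 and Pars2 0.0599 without 18, and Yars2 reached 0.0578 without 14. The WT count was 10 without preleukemic sample 18, and the count of mitochondrial genes that were higher was 3 without 18 or without leukemia 14. A fit of the WT samples alone also gave 10 passing genes. Without preleukemic sample 20, whose neutrophil and dividing cell markers stood apart, 17 passed.

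The genotypes were then compared at each stage. Before leukemia 0 of the 34 genes passed between Pax5+/- and WT samples, beside 0.624% of all genes tested (0.232% higher and 0.392% lower), and 1 had an unadjusted limma p under 0.05, as did 8.97% of all genes. That gene was Farsa, with 8.73, 8.8 and 8.81 in the WT samples and 8.85 to 9.18 in the 7 Pax5+/- samples. The groups did not overlap, and the log2 difference of 0.23 (SE 0.09) had an adjusted limma p of 0.446. Cars and Yars2 did not overlap either, and the share of all genes without overlap was not counted here. Lars had the next smallest p after Farsa. It was lower in the Pax5+/- samples, with a log2 difference of -0.27 (SE 0.13, adjusted limma p = 0.578). The 95% intervals of the 34 differences lay between -0.58 and 0.55 on the log2 scale.

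Between the leukemias of the genotypes 0 genes passed, beside 0.341% of all genes (0.0257% higher and 0.315% lower), and 2 had an unadjusted limma p under 0.05, as did 5.89% of all genes. Hars ran from 8.24 to 8.65 in the Pax5+/- leukemias, with a median of 8.46, and was 8.71, 8.73 and 8.8 in the WT leukemias. The groups did not overlap (log2 difference -0.28, SE 0.08, adjusted limma p = 0.229), and the share of all genes without overlap was not counted. Cars2 ran from 7.46 to 8.11 in the Pax5+/- leukemias and was 8.1, 8.15 and 8.22 in the WT leukemias (log2 difference -0.27, SE 0.11, adjusted limma p = 0.669). The 95% intervals of the 34 differences lay between -0.5 and 0.48.

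The stage differences of the genotypes were also compared directly. In this interaction 0 genes passed, beside 0.0965% of all genes, and 0 had an unadjusted limma p under 0.05, as did 7.19% of all genes. The smallest p belonged to Cars2 (difference of differences -0.29, SE 0.16, adjusted limma p = 0.753) and Hars (-0.21, SE 0.12, adjusted limma p = 0.775). The intervals lay between -0.74 and 0.72 on the log2 scale, which is as closely as these samples bound a difference between the genotypes.

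Genes that work with the synthetases were read from lists. Of 5 relatives and proofreading factors, 4 were higher in the Pax5+/- leukemias and 1 lower. Aarsd1, related to the editing domain of the alanine enzyme, rose 2.0-fold (limma adjusted p = 4.04e-07). The D-aminoacyl-tRNA deacylases Dtd1 and Dtd2 rose by 0.56 and 0.61 on the log2 scale. Prorsd1, related to a bacterial proline editing domain, fell by 0.66. Tarsl2, a threonine enzyme paralogue, was dim, at 5.34 to 5.48 before leukemia and 5.6 to 5.8 in it, below the array medians.

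Mitochondria make glutaminyl-tRNA by amidation of glutamyl-tRNA. Of the subunits of that amidase, Gatc rose by 0.37 (limma adjusted p = 0.000672) and Gatb by 0.34 (limma adjusted p = 0.00393), while Qrsl1 had a log2 difference of -0.12 (limma adjusted p = 0.3). Mtfmt, which formylates the mitochondrial initiator, had -0.01 (limma adjusted p = 0.956). Of 10 mitochondrial translation factors 5 were higher and 2 lower, with a median of 0.22. Mrrf, the ribosome recycling factor, rose by 0.69 and the initiation factor Mtif3 fell by 0.49. Of 6 cytosolic elongation factors 4 were higher and 0 lower.

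**Figure D5:**
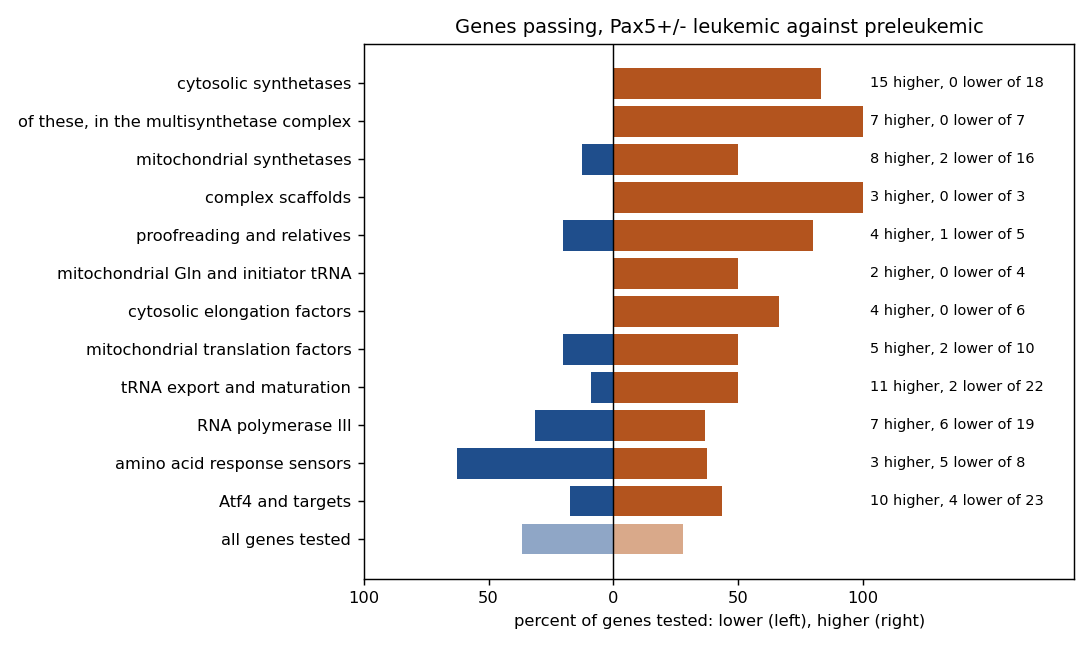
Percent of the tested genes of each list that were higher (right, orange) or lower (left, blue) in Pax5+/- leukemic than in preleukemic samples at a limma adjusted p of 0.05, with counts at the right and all 15542 genes in the bottom row. The cytosolic synthetases have 15 of 18 genes higher and none lower, and the sensors of the amino acid response have 5 of 8 lower.

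Of 22 genes for tRNA export and maturation 11 were higher and 2 lower, with a median of 0.31. Xpot, which exports tRNA from the nucleus, ran from 7.51 to 7.94 before leukemia and from 8.72 to 9.51 in it, a 2.56-fold rise (log2 difference 1.36, SE 0.1, limma adjusted p = 7.08e-10). Rpp38, a subunit of RNase P, rose 3.68-fold, and the tRNA methyltransferase Nsun2 rose 1.78-fold. Rtcb, the tRNA splicing ligase, fell by 0.77 on the log2 scale. In WT mice 12 of the 22 were higher and 0 lower, with a median of 0.58. RNA polymerase III transcribes tRNA genes. Of 19 of its subunits and factors 7 were higher and 6 lower, with a median of 0.01, near the 35.3% and 31.7% of all genes above the 50th percentile. Its subunit Polr3e rose by 0.94 and its repressor Maf1 fell by 0.6.

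Of the 8 sensors and regulators of the amino acid response 3 were higher and 5 lower. Eif2ak4, the sensor of uncharged tRNA, ran from 8.2 to 8.63 before leukemia and from 7.67 to 8.36 in it (log2 difference -0.47, limma adjusted p = 0.000236). Eif2ak3, the kinase of the unfolded protein response, fell 3.69-fold. Impact, an inhibitor of Gcn2, rose 2.4-fold, and the phosphatase subunit Ppp1r15b fell by 0.54 on the log2 scale.

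Atf4 mRNA was itself lower. It ran from 8.09 to 8.7 before leukemia and from 7.5 to 8.13 in the Pax5+/- leukemias (log2 difference -0.6, SE 0.12, limma adjusted p = 0.000214), and the WT difference was -0.56 (limma adjusted p = 0.0332). The WT call was lost without leukemia 14, 15 or 17 or preleukemic sample 18 or 19, with a p of up to 0.198 in limma's fits. Since Atf4 is regulated mainly in translation, its mRNA does not measure its protein. Of 23 genes in the list of Atf4 and its targets outside the synthetases 10 were higher and 4 lower, with a median of 0.46.

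The targets did not move as 1 block. Slc7a5 and Slc3a2, the chains of a transporter of large neutral amino acids, rose 4.9-fold and 2.02-fold. Shmt2, Phgdh and Psat1, enzymes of serine and glycine metabolism, rose 3.56-fold, 1.96-fold and 1.82-fold. The stress genes Ddit3, Trib3 and Chac1 had log2 differences of -0.68 (limma adjusted p = 2.11e-05), 0.06 (limma adjusted p = 0.615) and -0.07 (limma adjusted p = 0.542). Asns, the asparagine synthetase, ran from 5.67 to 5.99 before leukemia and from 5.46 to 7.45 in it (log2 difference 0.46, limma adjusted p = 0.133). In WT mice Asns differed by 1.53 (limma adjusted p = 0.0103), and the call was lost without 15, 17, 18 or 19, with a p of up to 0.0553 in limma's fits.

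Myc ran from 7.19 to 8.03 before leukemia and from 9.07 to 11.95 in the Pax5+/- leukemias, with no overlap. The rise was 12.3-fold (log2 difference 3.62, SE 0.34, limma adjusted p = 1.31e-08), and in WT mice the log2 difference was 2.8 (SE 0.56, limma adjusted p = 0.000659). Mycn and Mycl had log2 differences of 0.18 (limma adjusted p = 0.126) and -0.04 (limma adjusted p = 0.683) in Pax5+/- mice. The part of Myc in the synthetase values was not tested.

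Promoters of 25 of the 34 genes were taken from RefSeq (GRCm38.p6), as 26 windows. Each ran from 250 bases before to 50 bases after the start of transcription. The search did not cover every chromosome, so a gene without a window need not be absent from RefSeq. The windows were searched for the E-box CACGTG, to which Myc binds, and for TGATGNAA, the element known for Atf4, on both strands. CACGTG was in the windows of Ears2, Farsb, Iars and Tars, 15.4% of the 26 windows beside 7.15% of all 32851 windows searched. TGATGNAA was in those of Gars, Iars, Tars and Yars, 15.4% beside 3.97% of all windows. No match of either motif shared bases with a match of the other. A match describes letters and not a bound site, and 4 windows are few. The 100 bases before the start are shown for the 4 genes with a match there, all of them cytosolic enzymes, to show which motif stands where. Each is written 5′ to 3′ on the strand of its gene, with the match in capitals: CACGTG in Farsb (chr1:78488898-78488997, minus strand) and Iars (chr13:49682030-49682129, plus strand), and TGATGNAA read on the opposite strand in Gars (chr6:55037901-55038000, plus strand) and Tars (chr15:11399659-11399758, minus strand).
Farsb: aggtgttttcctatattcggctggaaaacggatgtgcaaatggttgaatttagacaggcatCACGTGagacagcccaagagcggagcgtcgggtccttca
Iars: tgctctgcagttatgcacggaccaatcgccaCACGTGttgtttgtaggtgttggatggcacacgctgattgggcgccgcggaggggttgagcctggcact
Gars: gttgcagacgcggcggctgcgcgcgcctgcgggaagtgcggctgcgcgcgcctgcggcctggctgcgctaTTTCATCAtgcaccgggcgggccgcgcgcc
Tars: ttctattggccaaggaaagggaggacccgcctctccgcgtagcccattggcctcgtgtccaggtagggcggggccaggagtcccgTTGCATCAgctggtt

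Each gene with a match was among the 23 that rose in the Pax5+/- leukemias, at differences from 0.24 to 0.74. A rise was common in the part, with 23 of all 34 genes and 15 of the 18 cytosolic genes higher. Whether the motifs bear on the rise was not tested. Those with CACGTG had log2 differences of 0.74 (Iars), 0.66 (Farsb), 0.3 (Tars) and 0.24 (Ears2). Those with TGATGNAA had 0.74 (Iars), 0.65 (Gars), 0.39 (Yars) and 0.3 (Tars). Neither motif was in the window of Iars2, which had the largest difference, and synthetase genes without a window were not searched.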

How the data were processed

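Total RNA of 23 marrow samples was labelled with biotin and hybridised to 1 array per sample, per the labels' protocols. What the series deposited are log2 signals per probe set. The authors used Transcriptome Analysis Console, per the submitters' processing notes, and its version, the background correction and the normalization are not given in the sources used here. Groups followed the sample titles. Every sample has a mouse or sample number of its own in the labels.

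Per symbol, the probe set of highest mean among the 21789 with 1 symbol was used. A gene was tested if 3 or more arrays held it above their 30th percentile. A limma 3.58.1 model in R 4.3.3 covered all 4 groups (two-sided moderated tests, eBayes with trend) and adjusted over 15542 genes. Folds are 2 raised to the log2 difference. The members and lists were chosen with earlier results of these data known. Signals by sample are given for the 6 cytosolic and 4 mitochondrial genes of largest passing change in Pax5+/- mice, the 3 of smallest change of each kind, the 2 of smallest p in each genotype comparison and interaction, and Wars, Gars and Kars. On simulated data with 200 of 15542 genes changed, 98% (Pax5+/- stage) and 86% (WT stage) were recovered at a log2 change of 1, and 76% and 32% at 0.5. Between the genotypes before leukemia, in leukemia and in the interaction, 80%, 92% and 75% were recovered at 1, and 51%, 61% and 33% at 0.5. In the data 64.6% (Pax5+/-) and 37.2% (WT) of genes passed between the stages, far more than were changed in the simulation. The simulated rates therefore need not hold for the stage comparisons. Alternatives were other filters, eBayes settings, quantile normalization, median centring, separate fits and the mean of all probe sets. Others were an Xist covariate, a random block for the letter in mouse numbers, and samples left out. Figures were drawn with matplotlib 3.10.9.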

Additional observations from a re-analysis of the deposited data

Results flagged for a closer look

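Among 68 combinations of a synthetase gene and a Pax5+/- group, 4 had a sample far from the others of its group by Dixon's ratio, and chance gives about 1 in 20. Leukemia 2 was low for Lars2, at a log2 signal of 7.08 where the nearest leukemia had 7.34. It was high for Tars, at 8.4, with the nearest at 7.89. Leukemia 7 was high for Tars2, at 9.53, with the nearest at 8.87. Pax5+/- preleukemic sample 22 was low for Ears2, at 5.89, with the nearest at 5.99.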

How the results depend on the processing

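No synthetase gene that passed between the stages changed sign under any alternative run. Counting each called gene under each alternative, the Pax5+/- calls held in 416 of 425 combinations of a gene and a sample left out and in 291 of 300 combinations with another alternative, and the WT calls in 79 of 96 and 166 of 176. With 1 sample left out the count of passing genes ran from 24 to 26 in Pax5+/- mice (cytosolic genes higher 15 to 15, mitochondrial 7 to 9) and from 10 to 18 in WT mice (cytosolic 7 to 11, mitochondrial 3 to 6), and it was 0 to 0 between the genotypes at either stage and for the interaction. Quantile normalization left 5 mitochondrial genes higher in Pax5+/- mice. A fit of the WT samples alone left 10 passing genes, of them 3 mitochondrial genes higher. The genes that turned sign did not pass in that comparison. Under quantile normalization these were Aars2 (-0.06 in Pax5+/- and -0.10 in WT mice), Cars (-0.06 and -0.11), Cars2 (-0.13 in Pax5+/-), Trib3 (-0.02 in Pax5+/-), Cth (0.02 in WT) and Eef1a1 (-0.04 in WT). Median centring gave 0.01 for Mtfmt (Pax5+/-) and 0.01 for Mycn (WT). Xist as a covariate gave -0.02 for Cars, 0.03 for Qrsl1 and 0.13 for Tars2 in WT mice and 0.01 for Mtfmt in Pax5+/- mice. Without leukemias 2, 6 and 7 Mtfmt had 0.06, and without WT samples 15, 17 and 20 Qrsl1 had 0.24. That last fit kept only 1 WT leukemia, and its calls are among the 176 combinations. With 1 sample left out, WT values ran from -0.06 to 0.12 for Aars2, -0.03 to 0.08 for Cars, -0.08 to 0.07 for Mycn, -0.22 to 0.02 for Qrsl1 and -0.04 to 0.01 for Tars2, and Pax5+/- values from -0.02 to 0.06 for Cars2 and -0.04 to 0.05 for Mtfmt. The cause of these changes was not tested. No paired analysis was possible because the sample numbers of the groups do not repeat.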
